A study of Mus musculus with 2 samples.

Results

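The 10 genes described here encode replacement histone variants, the histones that enter chromatin outside DNA replication in place of the bulk histones. They were taken by symbol: H2afz and H2afv for H2A.Z, H2afx for H2A.X, H2afj for H2A.J, H2afy and H2afy2 for macroH2A, H3f3a and H3f3b for H3.3, and H1f0 and H1fx for linker histones. All 10 were found among the 55450 genes of the main table, of which 21951 are protein-coding. The libraries hold polyadenylated RNA of G1E-ER4, an immortalized mouse erythroid line whose parent cells lacked Gata1 and to which an estradiol-activated GATA1 fusion protein was returned. Both libraries come from cells given 17beta-estradiol at 10 nM for 24 h to start erythroid differentiation, and they form 1 group (n = 2) with no untreated or parental sample. Both carry 1 biosample record and nothing says that they were separate cultures, so the spread between replicate 1 and replicate 2 may be technical, and no test between conditions was possible.

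Bulk histone genes are transcribed in S phase, lie in clusters, lack introns, and end their mRNAs in a stem-loop in place of a poly(A) tail. Replacement variant genes are mostly spread over the genome, mostly carry introns and poly(A) tails, and are expressed throughout the cell cycle. Dedicated chaperones place the variants at promoters, at transcribed genes, at repressed chromatin or at centromeres. Maturing erythroid cells condense their chromatin and leave the cell cycle.

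Replicate 1 held 71480423 expected counts and replicate 2 held 14119948, 5.06 times fewer, so counting error is larger in replicate 2. CPM is the count scaled to the library total. A gene with no count could have been present at up to 0.0420 CPM in replicate 1 or 0.212 CPM in replicate 2, which is 3 counts of the total. The ratio between the libraries also moved with base composition: the median log2 ratio of replicate 1 over replicate 2 in TPM (abundance per transcript length, scaled to a fixed total) was 1.04 in the lowest of 20 bins of GC content and -0.69 in the highest. Each TPM ratio of a detected variant gene below therefore stands beside the median of genes of like GC content. Other genes below have no such median beside their values. The part of depth in the ratios was not tested. All 8 erythroid markers were detected, beside 33.2% of all protein-coding genes. They include Gata1, at 2890 and 2661 TPM, which these cells were given as a fusion, so its detection tells little of cell type. Of other markers, 0 of 4 granulocyte and monocyte, 0 of 3 lymphoid, 0 of 2 mast cell and 0 of 3 stromal and endothelial were. The erythroid list summed to 169540 and 70530 TPM in replicates 1 and 2. The granulocyte and monocyte list summed to 0.07 and 0 TPM. The lymphoid list summed to 0.23 and 0.55 TPM and the stromal list to 0.01 and 0.17 TPM. The mast cell markers were at 0 in both libraries. The megakaryocyte markers, of which 2 of 3 were detected, summed to 5.04 and 6.52 TPM, with Pf4 at 0 in both.

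Of the 10 genes, 7 were detected, meaning at 1 TPM or more in both libraries, beside 33.2% of all protein-coding genes. H2afy2, H1f0 and H1fx were not. In replicate 1 the detected genes ran from H2afz at 2417 TPM, through H3f3a, H2afx, H2afj, H3f3b and H2afv, to H2afy at 45.6 TPM. In replicate 2 they ran from H2afx at 1955 TPM, through H2afz, H3f3a, H2afj, H3f3b and H2afy, to H2afv at 21.2 TPM. By mean TPM the order was H2afz, H2afx, H3f3a, H2afj, H3f3b, H2afv and H2afy, and the ranges of each neighbouring pair overlapped. Both values of H2afz, and both of H2afx, lay above both values of H2afj, H3f3b, H2afv and H2afy. Both values of H3f3a lay above those of H3f3b, H2afv and H2afy. The detected genes and the undetected ones are shown side by side in the plot of levels.

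**Figure D1:**
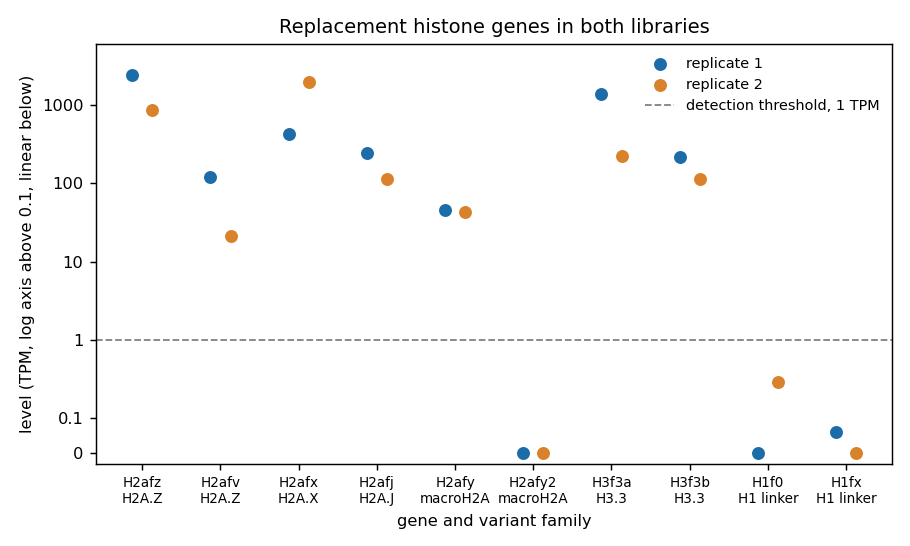
Level of each gene in TPM (vertical axis, logarithmic above 0.1 and linear below) in replicate 1 (blue, left) and replicate 2 (orange, right), 1 point per library, with the detection threshold of 1 TPM as a dashed line. The highest points are H2afz in replicate 1 at 2417 TPM and H2afx in replicate 2 at 1955 TPM, and H2afy2, H1f0 and H1fx lie below the threshold in both.

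Between the libraries, 5 of the 7 detected genes differed more than 2-fold in TPM, beside 50.4% of the 8543 protein-coding genes that averaged at least 50 expected counts. H2afz, H2afv, H2afj and H3f3a were more than 2-fold higher in replicate 1, where the background was 35.2%. H2afx was more than 2-fold higher in replicate 2, where the background was 15.1%. The median log2 ratio of replicate 1 over replicate 2 was 1.08 for the 7 genes and 0.42 for all genes tested. Some of these calls ended under another setting. H2afz fell under 2-fold with DESeq2 size factors, at a log2 ratio of 0.98, and with the median of genes of like GC content set to 0, at 0.95, a setting in which 4 of the 7 genes were over 2-fold apart. H2afv, at 0.94, and H2afj, at 0.30, did so in the table that was quantified from the reads themselves and rescaled over nuclear protein-coding genes, where 3 of the 7 were over 2-fold apart, beside 37.2% of genes. H2afx did so in that table before rescaling, at -0.28. The GC setting and the rescaled table were chosen after seeing the data. H3f3a stayed over 2-fold under all 11 alternatives.

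**Figure D2:**
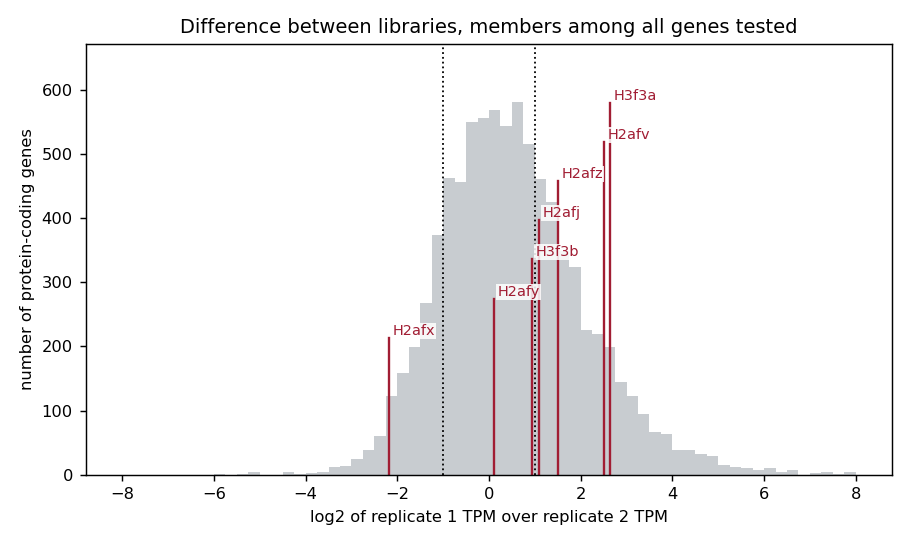
Log2 of replicate 1 TPM over replicate 2 TPM (horizontal axis) for the 8543 protein-coding genes compared (grey histogram, number of genes on the vertical axis), without the 106 genes at 0 in a library and with values beyond 8 drawn in the outermost bars. Red lines mark the 7 detected variant genes and dotted lines mark 2-fold. H2afx at -2.18 lies on the far side of the distribution from H3f3a at 2.65.

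H2A.Z, the variant placed at promoters and enhancers beside active and poised genes, is made from H2afz (H2A.Z.1) and H2afv (H2A.Z.2). H2afz (ENSMUSG00000037894.13) lies on the plus strand of mm10 at chr3:137864487-137866922 and H2afv on the minus strand at chr11:6427229-6444443. Their coding sequences show how far reads of one can be told from the other. Over 387 bases with the stop codon, H2afz-201 and H2afv-202 differ at 81 bases, an identity of 79.1%, and the encoded proteins differ at 3 residues. The longest identical stretch has 14 bases. Coding bases 1 to 150 follow, 5′ to 3′ from GENCODE M21 on mm10 (chr3:137864694-137865588 plus and chr11:6433769-6444339 minus, introns left out), with the 34 differing bases of this stretch in capitals, which change 2 residues.
H2afz: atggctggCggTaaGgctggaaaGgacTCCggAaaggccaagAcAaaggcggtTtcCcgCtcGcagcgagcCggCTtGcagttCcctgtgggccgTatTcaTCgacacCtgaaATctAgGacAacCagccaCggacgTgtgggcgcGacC
H2afv: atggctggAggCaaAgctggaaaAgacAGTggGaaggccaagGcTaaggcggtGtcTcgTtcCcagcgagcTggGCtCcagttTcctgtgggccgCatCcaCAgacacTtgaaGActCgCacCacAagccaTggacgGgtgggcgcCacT

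H2afz had 2417 TPM in replicate 1 and 855.3 TPM in replicate 2 (1636 ± 1104, SD, n = 2). It was high in both libraries, ranking 35 and 163 among protein-coding genes, and its ratio of replicate 1 over replicate 2 was 2.83 in TPM. In CPM the ratio was 2.67, with an exact binomial interval at 95% of 2.60 to 2.75 on 72043 and 5328 expected counts; such intervals cover counting error only. Genes of like GC content (H2afz has 52.7%) had a median log2 ratio of 0.54, against 1.499 for H2afz. Of the windows of 31 bases of its transcript H2afz-201, the only one searched, 34.5% also occur in 4 other genes. Among them is the processed pseudogene Gm8203, which had 6.11 TPM in replicate 1 and 1.07 TPM in replicate 2.

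H2afv had 120.2 TPM in replicate 1 and 21.2 TPM in replicate 2 (70.7 ± 70.0, SD, n = 2). It was the lower H2A.Z gene in both libraries, and higher in replicate 1. The TPM ratio was 5.68 and the CPM ratio 4.26 (exact binomial interval 3.85 to 4.73, on 8355 and 387 expected counts). Genes of like GC content (H2afv has 49.4%) had a median log2 ratio of 0.60, against 2.50 for H2afv. The level of H2afz over that of H2afv was 20.1 in replicate 1 and 40.4 in replicate 2, so H2afz led the pair in each library. Without length correction H2afz over H2afv was 8.62 in replicate 1 and 13.8 in replicate 2 in expected counts.

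The transcript annotated with the full 128 codons of H2A.Z held a small share of the H2afz TPM. That transcript, H2afz-201, had 1.89% in replicate 1 and 0.553% in replicate 2. The table quantified from reads put 11.3% and 2.45% there. H2afz-206, with a shorter annotated reading frame of 87 codons, held 48.8% and 47.6%, and H2afz-207, with 105 codons, held 30.6% and 43.9%. The processed transcript H2afz-205 held 15.9% in replicate 1 and 0.868% in replicate 2, and the retained-intron transcript H2afz-203 held 2.65% and 6.62%. The other 2 transcripts of H2afz stayed under 1% in both libraries. For H2afv, the full-length H2afv-202 held 53.2% in replicate 1 and 98.0% in replicate 2, and H2afv-201, with 90 codons, held the remainder, 46.8% and 2.03%. H2afv-201 rested on 2.06 expected counts in replicate 2.

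Of the factors that deposit or remove H2A.Z, 12 of 14 were detected, beside 33.2% of all protein-coding genes. Their median levels were 65.5 and 27.7 TPM in replicates 1 and 2. Vps72, the H2A.Z-binding subunit of the SRCAP remodeller, had 252.9 TPM in replicate 1 and 494.1 TPM in replicate 2. Anp32e, the chaperone that removes H2A.Z, had 445.9 and 31.1 TPM. Znhit1, another SRCAP subunit, had 248.7 and 170.2 TPM. The 2 not detected were Actr6, a SRCAP subunit, at 0.46 and 0 TPM, and the ATPase Ruvbl1 at 7.65 and 0.16 TPM.

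H2A.X, whose C-terminal serine is phosphorylated by DNA damage kinases around double-strand breaks, is made from the intronless H2afx (mm10 chr9:44334694-44336077, plus strand). H2afx is known for 2 forms of mRNA, a stem-loop form of S phase and a longer polyadenylated form. The end of its coding sequence is shown because it carries the phosphorylated motif, with the last codons and the stop in capitals (chr9:44335164-44335193). The stem-loop of the annotated transcript, in capitals with 6 bases on each side (chr9:44335234-44335261), is shown because it sets H2afx apart from the other variants.
H2afx coding end: aaggcctcgcaggccTCTCAGGAGTACTGA
H2afx stem-loop: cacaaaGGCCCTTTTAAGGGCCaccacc
The stem-loop begins 46 bases beyond the stop codon, and the annotated transcript runs on for 822 bases after it. A stem-loop pattern, spelled GG, any 2 letters, CTTTT, any letter, AG, any 2 letters and CC, was searched on the sense strand of the annotated transcripts. It occurred in 1 of the 10 variant genes and in 44 of 67 replication-dependent histone genes (65.7%). Outside the replication-dependent genes it occurred in 34 of 21884 protein-coding genes (0.155%), which include the 10 variants and the match in H2afx. A match is a description of the letters.

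H2afx had 431.9 TPM in replicate 1 and 1955 TPM in replicate 2 (1193 ± 1077, SD, n = 2). It was lower in replicate 1 and the highest of the 10 genes in replicate 2, where it ranked 68 among protein-coding genes, against 264 in replicate 1. The ratio of replicate 1 over replicate 2 was 0.221 in TPM and 0.252 in CPM (exact binomial interval 0.248 to 0.255, on 38566 and 30272 expected counts). Of the genes tested, 2.31% had a lower ratio. H2afx has a GC content of 62.3%, and genes of like content had a median log2 ratio of -0.69, against -2.18 for H2afx. In the table quantified from reads, H2afx had 292.7 TPM in replicate 1 and 355.7 TPM in replicate 2, where 77.6% of all genes were over 2-fold apart and the median log2 ratio was 1.75. Rescaled over nuclear protein-coding genes, that table gave 395.1 and 1493 TPM. The ratio stayed below 1 under all 11 alternatives, with log2 values of -2.42 to -0.28. The level of H2afx over that of H2afz was 0.179 in replicate 1 and 2.29 in replicate 2, so the order of these genes changed between libraries.

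Of 8 genes of the H2A.X damage signalling pathway, 4 were detected, beside 33.2% of all protein-coding genes. Baz1b, a kinase of H2A.X, had 28.7 TPM in replicate 1 and 99.2 TPM in replicate 2. Rnf8, the ubiquitin ligase recruited after H2A.X phosphorylation, had 19.4 and 22.1 TPM, and Mdc1, the adaptor that binds phosphorylated H2A.X, had 23.5 and 4.24 TPM. The damage kinases Atm, at 0.50 and 0.68 TPM, and Prkdc, at 0.90 and 0.65 TPM, stayed below the detection threshold in both libraries. Atr, a further damage kinase, at 2.63 and 0.36 TPM, and Trp53bp1, at 8.85 and 0.71 TPM, fell below it in replicate 2 only.

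H2A.J, which differs from bulk H2A chiefly in its C-terminal tail, is made from H2afj (mm10 chr6:136808244-136810074, plus strand). H2afj had 240.2 TPM in replicate 1 and 113.6 TPM in replicate 2 (177 ± 89.5, SD, n = 2). Both libraries held it above 100 TPM, higher in replicate 1. Its TPM ratio was 2.11 and its CPM ratio 2.87 (exact binomial interval 2.70 to 3.06). The GC content is 58.7%, and genes of like content had a median log2 ratio of -0.25, against 1.08 for H2afj. The shorter transcript H2afj-202, of 577 bases and 126 codons, held 66.2% and 77.9% of TPM in replicates 1 and 2, and H2afj-201, of 1831 bases and 129 codons, held 33.8% and 22.1%. The older annotation release M4 lists H2afj-201 alone, and there H2afj had 127.9 TPM in replicate 1 and 53.6 TPM in replicate 2.

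macroH2A carries a large macrodomain behind its H2A part and is known for repressed chromatin such as the inactive X chromosome. H2afy (macroH2A1; mm10 chr13:56073619-56136361, minus strand) had 45.6 TPM in replicate 1 and 42.5 TPM in replicate 2 (44.1 ± 2.20, SD, n = 2). The libraries lay close together, with a TPM ratio of 1.07 and a CPM ratio of 1.36 (exact binomial interval 1.22 to 1.51). Genes of like GC content (H2afy has 54.5%) had a median log2 ratio of 0.42, against 0.10 for H2afy. In the table quantified from reads the log2 ratio of H2afy was 1.62. The paralog H2afy2 (macroH2A2; chr10:61738665-61784147, minus strand) had no count in either library. The upper bounds of the authors' interval for H2afy2 were 0.0202 TPM in replicate 1 and 0.111 TPM in replicate 2.

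macroH2A1 has a pair of splice forms that differ in 1 exon of the macrodomain: macroH2A1.1 binds ADP-ribose, and macroH2A1.2 does not. The exons are shown because they decide the form. H2afy-201, with 372 codons, carries the 100 bases at chr13:56089758-56089857 and corresponds to macroH2A1.2, and H2afy-202, with 369 codons, carries the 91 bases at chr13:56088252-56088342 and corresponds to macroH2A1.1. Both are read on the minus strand of mm10.
Exon of H2afy-201: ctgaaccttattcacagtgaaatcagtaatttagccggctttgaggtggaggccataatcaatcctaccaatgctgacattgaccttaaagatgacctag
Exon of H2afy-202: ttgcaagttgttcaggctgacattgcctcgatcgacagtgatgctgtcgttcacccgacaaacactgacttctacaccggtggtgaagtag
H2afy-202 had 4.66 TPM in replicate 1 and 3.18 TPM in replicate 2, which is 10.2% and 7.48% of the gene. H2afy-201 had 1.34 and 0.13 TPM, which is 2.94% and 0.306%. The table quantified from reads gave the opposite order, with H2afy-202 at 0.552 TPM in replicate 1 and 0 in replicate 2 and H2afy-201 at 2.70 and 0.552 TPM. M4 likewise put 8.40% and 2.16% on H2afy-201 and 0.199% and 0 on H2afy-202, so which form led depended on the table. Most of the gene was placed on transcripts with no reading frame: the processed transcript H2afy-204 held 62.9% in replicate 1 and 58.5% in replicate 2, and the retained-intron transcript H2afy-206 held 22.7% and 33.6%. The other 4 transcripts, all annotated as noncoding, held under 2% each.

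All 5 genes of a list on macroH2A1 splicing and binding were detected, beside 33.2% of all protein-coding genes. The RNA helicase Ddx5, known to act on the choice of the macroH2A1 exons together with Ddx17, had 1263 TPM in replicate 1 and 7458 TPM in replicate 2. Mbnl1, a splicing factor, had 107.1 and 130.5 TPM, and Ddx17 had 64.2 and 62.0 TPM.

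H3.3, the H3 variant placed at active genes, regulatory elements and telomeres, is made as 1 protein from H3f3a (mm10 chr1:180800832-180813943, minus strand) and H3f3b (chr11:116021912-116027962, minus strand). The coding sequences are shown to bring out that a single protein has 2 quite different messages. Over 411 bases with the stop codon, H3f3a-207 and H3f3b-201 differ at 95 bases, an identity of 76.9%, while 0 of the 136 encoded residues differ. The longest identical stretch has 23 bases. Coding bases 1 to 150 are given, 5′ to 3′, from GENCODE M21 on mm10 (chr1:180810249-180811926 and chr11:116023757-116024009, both minus, introns left out), with the 32 differing bases of this stretch in capitals.
H3f3a: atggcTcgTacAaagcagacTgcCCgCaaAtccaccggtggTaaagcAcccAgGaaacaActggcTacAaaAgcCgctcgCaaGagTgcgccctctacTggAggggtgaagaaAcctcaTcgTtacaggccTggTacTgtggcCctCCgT
H3f3b: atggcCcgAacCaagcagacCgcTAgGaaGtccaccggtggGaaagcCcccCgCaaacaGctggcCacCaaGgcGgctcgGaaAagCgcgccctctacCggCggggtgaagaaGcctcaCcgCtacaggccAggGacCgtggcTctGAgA

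H3f3a had 1388 TPM in replicate 1 and 221.7 TPM in replicate 2 (805 ± 824, SD, n = 2). It was high in replicate 1 and lower in replicate 2, with ranks of 76 and 581 among protein-coding genes. The TPM ratio was 6.26 and the CPM ratio 6.85 (exact binomial interval 6.55 to 7.17, on 67092 and 1935 expected counts). Genes of like GC content (H3f3a has 53.1%) had a median log2 ratio of 0.51, against 2.65 for H3f3a. H3f3b had 214.7 TPM in replicate 1 and 112.8 TPM in replicate 2 (164 ± 72.0, SD, n = 2), a TPM ratio of 1.90 and a CPM ratio of 3.10 (exact binomial interval 2.93 to 3.28). Genes of like GC content (H3f3b has 51.2%) had a median log2 ratio of 0.68, against 0.93 for H3f3b. H3f3b fell on different sides of 2-fold in TPM and in CPM. The level of H3f3a over that of H3f3b was 6.46 in replicate 1 and 1.97 in replicate 2, so H3f3a led the pair in both libraries. Without length correction the ratio was 3.35 and 1.51 in expected counts. In the table quantified from reads, H3f3a and H3f3b had 867.8 and 276.6 TPM in replicate 1. In replicate 2 they lay close together there, at 52.5 and 45.6 TPM.

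Processed copies of H3f3a share much sequence with H3f3a-207, the only H3f3a transcript searched. It held 0.319% and 0.537% of the gene's TPM in replicates 1 and 2. Of its windows of 31 bases, 58.2% occur in 55 other genes, all annotated as pseudogenes. Of these copies, H3f3a-ps2 differs from the coding sequence at 5 of 411 bases and had 0.06 TPM in replicate 1 and 0.29 TPM in replicate 2, and H3f3a-ps1 was at 0 in both. H3f3c, which differs at 4 bases, had 1.08 TPM in replicate 1 and 0 in replicate 2. The 55 copies had summed levels of 1.22 and 0.29 TPM. How far sharing of reads among copies moves the level of H3f3a was not tested. For H3f3b-201, 17.2% of windows occur in 5 other genes.

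Most of the H3f3a TPM stood on H3f3a-202, a retained-intron transcript that ends inside an intron and lacks the last coding exon. H3f3a-202 held 84.5% in replicate 1 and 63.0% in replicate 2, and the table quantified from reads gave 92.0% and 57.4%. The coding transcript H3f3a-201 held 14.9% and 36.4%. Its annotated reading frame has 135 codons, against the 136 of H3f3a-207 compared above. The other 5 transcripts, H3f3a-207 among them, held under 1% each in both libraries. In the table quantified from reads, H3f3a-207 held 2.59% and 21.1%. The last exon of H3f3a-202 has 523 bases, of which 154 belong to a coding exon and 369 to the intron after it. The 100 bases around that junction (mm10 chr1:180810057-180810156, minus strand) are shown because they mark where this transcript leaves the coding message, with intron bases in capitals.
H3f3a-202: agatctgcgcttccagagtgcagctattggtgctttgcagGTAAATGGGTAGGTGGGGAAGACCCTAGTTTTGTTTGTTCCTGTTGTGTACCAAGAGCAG
The map of the H3f3a transcripts shows where the exons lie.

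**Figure D3:**
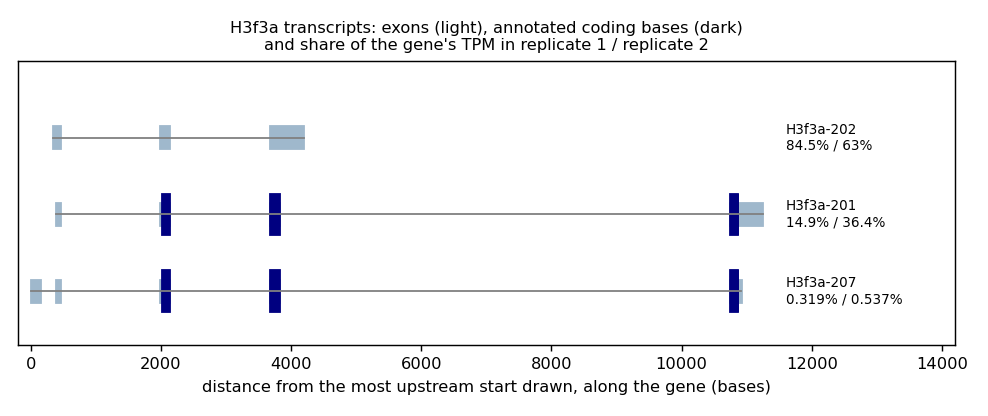
Exons (light) and annotated coding bases (dark) of 3 H3f3a transcripts, drawn along the gene in bases from the most upstream start, with their share of the gene's TPM in replicate 1 and replicate 2. H3f3a-202, with 84.5% and 63.0%, ends in the intron after the second coding exon, while H3f3a-201 and H3f3a-207 continue to the last coding exon.

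H3f3b likewise had TPM on transcripts with no reading frame. The full-length coding H3f3b-201 held 53.7% in replicate 1 and 20.9% in replicate 2, and the table quantified from reads gave 9.95% and 2.99%. The processed transcripts H3f3b-203, at 36.2% and 60.8%, and H3f3b-204, at 10.1% and 18.3%, held nearly all the remainder, and H3f3b-202 was at 0 in both. Of the 6 detected variant genes with 2 or more transcripts, H3f3a and H2afy had over 50% of TPM on transcripts not annotated as protein-coding in both libraries, beside 22.7% of 6797 detected protein-coding genes. The noncoding share in replicates 1 and 2 was 46.3% and 79.1% for H3f3b, 18.7% and 7.93% for H2afz, and 0 for H2afv and H2afj, and its median over those 6797 genes was 11.9% and 10.6%. These shares come from estimates that divide reads among overlapping transcripts.

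**Figure D4:**
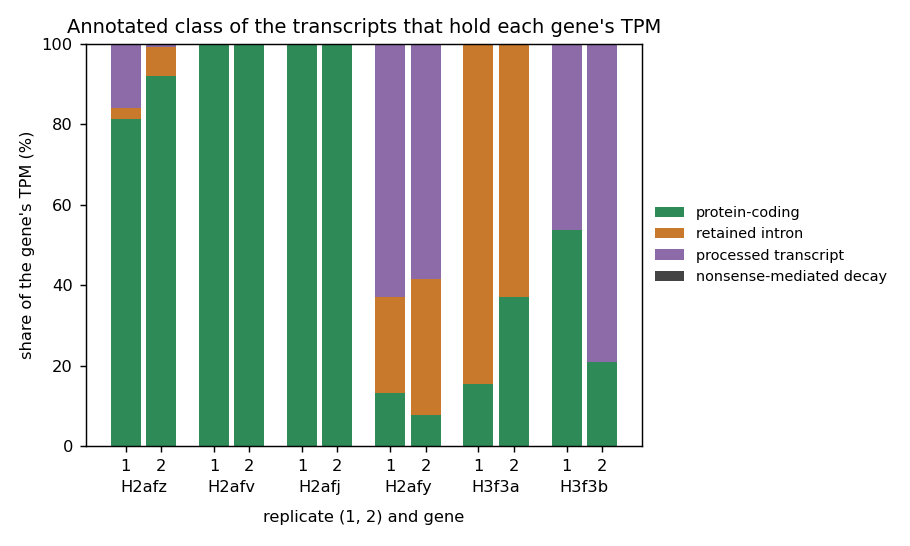
Share of each gene's TPM (percent, vertical axis) on transcripts of each annotated class, for the 6 detected variant genes with 2 or more transcripts, replicate 1 left and replicate 2 right. Protein-coding transcripts hold all of H2afv and H2afj, and retained-intron transcripts hold 84.5% and 63.0% of H3f3a.

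All 8 factors on the list for H3.3 deposition were detected, beside 33.2% of all protein-coding genes. Their median levels were 18.7 and 22.0 TPM in replicates 1 and 2. Dek, an H3.3 chaperone, had 1220 TPM in replicate 1 and 1366 TPM in replicate 2. Cabin1 and Ubn1, subunits of the HIRA complex that places H3.3 at active genes, had 102.7 and 112.2 TPM, and 27.9 and 34.2 TPM. All 5 genes for the centromeric H3 variant and its loading were also detected, again beside 33.2% of all protein-coding genes. Cenpa, the centromeric variant itself, had 621.3 TPM in replicate 1 and 720.0 TPM in replicate 2, its chaperone Hjurp had 61.4 and 11.6 TPM, and Oip5, a subunit of the Mis18 loading complex, had 48.7 and 13.8 TPM.

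Neither linker variant was detected. H1f0 (H1.0, a linker histone known to build up in cells that stop dividing; mm10 chr15:79028450-79030504, plus strand) had 0 TPM in replicate 1 and 0.29 TPM in replicate 2, on 0 and 7 expected counts. The bounds of the authors' interval in replicate 2 were 0.118 and 0.538 TPM. H1fx (H1.X; chr6:87980421-87981637, minus strand) had 0.06 TPM in replicate 1 and 0 in replicate 2, on 5 and 0 expected counts. The highest linker histone gene was the replication-dependent Hist1h1c, which had 82.0 TPM in replicate 1 and 70.2 TPM in replicate 2. Of 12 variants known from testis and oocyte, 0 were detected, beside 33.2% of all protein-coding genes, and 10 were at 0 in both libraries.

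Set against the 67 protein-coding replication-dependent genes, the variants took very different shares of the TPM of each histone class. The 67 were taken by symbols starting Hist1h, Hist2h, Hist3h or Hist4h. Among them are Hist1h1t and Hist1h2aa, which the testis and oocyte list also holds, at 0.02 TPM or less in both libraries. H3f3a and H3f3b made 1602 TPM in replicate 1 and 334.5 TPM in replicate 2, against 252.2 and 718.0 TPM for 12 replication-dependent H3 genes. All transcripts of H3f3a and H3f3b together thus held 86.4% and 31.8% of the H3 TPM. They include transcripts not annotated as protein-coding, which held 84.5% and 63.0% of H3f3a and 46.3% and 79.1% of H3f3b. The H3 share of protein-coding transcripts alone was not computed. The 6 H2A variants made 3255 and 2987 TPM, against 37096 and 40624 TPM for 18 replication-dependent H2A genes, which is 8.07% and 6.85%. For H1 the variants held 0.0602% and 0.316%. The H3 share was above 50% in replicate 1 and below it in replicate 2, while the H2A share was under 10% in both. In expected counts, which are not per length, the H3 share was 90.7% in replicate 1 and 44.7% in replicate 2, and the H2A share was 14.1% and 20.4%, so for H2A the higher library changed with the unit. These are shares in a library selected for poly(A), and whether the replication-dependent reads come from tailed RNA was not tested. Replication-dependent genes have near-identical copies whose reads the estimate shares out.

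**Figure D5:**
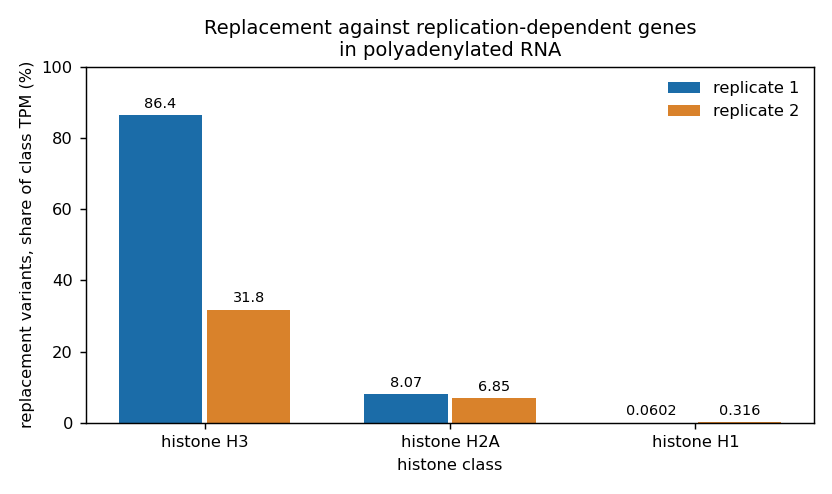
Share of replacement variants in the summed TPM of each histone class (percent, vertical axis), replicate 1 (blue, left) and replicate 2 (orange, right). All transcripts of the H3.3 genes, coding or not, held 86.4% and 31.8% of H3. The H2A variants held 8.07% and 6.85% of H2A, and the linker variants under 1% of H1.

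Of the replication-dependent genes, 52 of 67 were detected, again beside 33.2% of protein-coding genes. Among the 56 that could be compared between libraries, 11 were more than 2-fold higher in replicate 1, beside 35.2% of all protein-coding genes compared. In replicate 2, 24 of the 56 were more than 2-fold higher, beside 15.1%. The median log2 ratio of the 56 was -0.71, and it was not set beside genes of like GC content. The genes with the highest mean were Hist1h2ap, at 22719 and 7318 TPM in replicates 1 and 2, Hist1h2ah, at 6576 and 15769 TPM, and Hist1h2af, at 2919 and 14717 TPM. H2afx-201 shares 8.86% of its windows of 31 bases with 25 other genes and H2afj-201 7.16% with 26, most of them bulk H2A genes. Of 6 factors of stem-loop mRNA, 3 were detected, beside the same 33.2% of protein-coding genes. Slbp, the protein that binds the stem-loop, had 126.8 TPM in replicate 1 and 31.3 TPM in replicate 2. Lsm11 and Lsm10, of the U7 particle that cuts the mRNA end, had 10.6 and 108.3 TPM, and 10.4 and 4.48 TPM. The processing factor Zfp473, at 0.17 and 0.11 TPM, and the histone gene activator Npat, at 0.72 and 1.13 TPM, were not detected.

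Annotated neighbours overlap H2afx, H2afj, H2afy, H2afy2, H3f3a, H1f0 and H1fx, all at low levels. The antisense gene H3f3aos, on the opposite strand at the start of H3f3a, had 0.89 TPM in replicate 1 and 1.02 TPM in replicate 2. Aifm2, opposite the end of H2afy2, had 0.89 and 0.15 TPM. The sources used here do not say whether counting used strand. The other overlapping genes had under 0.1 TPM in both libraries.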

How the data were processed

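Polyadenylated RNA of 2 libraries was measured. Per the notes deposited with the files, reads were placed on mm10 with GENCODE M21 or M4; the sources used here name no aligner, and column names are those that RSEM and kallisto write. The authors' expected counts are estimated fragments, not normalized, and were rounded for the scaling tools. The authors' TPM is scaled to 1000000 over all entries, as a maximum likelihood and a posterior mean estimate. The deposited interval bounds, used as a signal, belong to the posterior TPM, and their level is not given. The deposited percent column was replaced by shares computed here from TPM.

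The M21 tables were the main ones. Identifiers were joined to symbols with the table quantified from reads, and coordinates, GC content (mean over transcripts) and coding sequences come from GENCODE M21 on mm10. Detection meant 1 TPM in both libraries. Ratios used genes averaging 50 or more expected counts. All 10 members and the 3 highest detected and the lowest undetected genes of each list are named. So are the -ps copies, the 3 highest replication-dependent genes, Hist1h1c, and transcripts at 5% or more. Hist1h1c, Atr, Trp53bp1, Hist1h1t, Hist1h2aa, Gm8203, H3f3c and overlapping genes were chosen after their values were seen. The members, lists and thresholds were chosen with earlier results of these data known. Alternatives were other tables, estimates, denominators, edgeR and DESeq2 scaling, CPM, the median of genes of like GC content set to 0, thresholds, and each library alone. The rule for counting genes over 2-fold was tested on simulated counts scaled to the library total, in separate code. The code that counted genes in TPM was not itself tested. Software was biopython 1.88, matplotlib 3.10.9, scipy 1.17.1 (binomial intervals), pandas 2.3.3 and numpy 2.4.6 under Python 3.11.15, and DESeq2 1.42.0 with edgeR 4.0.16 under R 4.3.3.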

Additional observations from a re-analysis of the deposited data

How the results depend on the processing

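Across the alternatives, 45 values of the main counts, paralog ratios and the H3f3a-202 share stayed within their range and 4 moved. Part of this tally was fixed in advance. Each library alone gives a value from which the mean of a ratio or share was taken. A changed TPM denominator cancels in a ratio within a library. Among values counted within range, the log2 ratio of H2afx over H2afz changed sign, from -0.65 to 0.80 in expected counts. The count of variant genes over 2-fold apart was 3 in the table quantified from reads over nuclear protein-coding genes, against 5. The mean log2 ratio of H2afz over H2afv was 4.83, against 3.66 in the table quantified from reads with either denominator and 3.45 in expected counts; the first cause was not tested, and the second setting leaves out length. With each library alone, 7 to 7 genes were detected, the log2 ratio was 0.97 to 2.69 for H3f3a over H3f3b, 4.33 to 5.34 for H2afz over H2afv and -2.48 to 1.19 for H2afx over H2afz, and the H3f3a-202 share was 63.0% to 84.5%. The log2 ratio of H2afy between libraries ran from -0.32 to 1.62 over 11 alternatives. Of 200 further values, 139 stayed within range, a tally with the same limit. No paired analysis was possible because the series holds 1 group. The upper bounds of the authors' intervals lay under 1 TPM for all 3 genes not detected.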
